A study of Mus musculus with 17 samples.

Results

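Aminoacyl-tRNA synthetases are the enzymes that charge each tRNA with its amino acid, and 36 genes that encode them were followed through the RNA-seq, scRNA-seq, H3K27ac CUT&RUN and ATAC-seq data of the 6-OHDA-induced PD model. The members were taken by gene symbol, with a final 2 in the symbol marking the mitochondrial enzymes, a rule that uses no measured value. All 36 were among the 20328 genes listed in RNA-seq, of which 20 encode cytosolic and 16 mitochondrial enzymes.

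The mice of every group were wild-type ICR animals, 8 weeks old at surgery, and the label gives the tissue as brain. The sham group carried no lesion. In the 6-OHDA group, 6-OHDA, a toxin taken up by catecholamine neurons, had been injected into the substantia nigra of 1 side at 10 µg/µL. The 6-OHDA+NDST3 group carried the same lesion and received, 5 days later, 2 µL of an AAV9 vector that expresses human NDST3 from the CMV promoter, which is not restricted to a cell type. RNA-seq covered 2 sham libraries, 1 library of the 6-OHDA-induced PD model and 2 libraries of the NDST3-treated PD model. The labels do not say how many animals each library holds, so the p-values measure the spread between these libraries. The 6-OHDA group has 1 library, whose spread was taken to be that of the other groups.

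A synthetase recognises 1 amino acid and the tRNAs that decode it. Cytosolic enzymes supply the ribosomes that translate nuclear transcripts. Mitochondrial enzymes are also encoded in the nucleus, are imported, and supply the translation of the respiratory chain subunits encoded by mitochondrial DNA. Gars and Kars serve both compartments from the same gene, and Eprs joins the glutamate and proline enzymes in 1 protein. A set of cytosolic synthetases is bound together with scaffold proteins in the multi-synthetase complex, and the others work outside it. Neurons depend on these enzymes: dominant mutations in several of the cytosolic genes cause inherited peripheral neuropathy, and recessive mutations in the mitochondrial ones cause encephalopathies. Many cytosolic synthetase genes are targets of ATF4, the transcription factor of the amino acid response, through the C/EBP-ATF response element.

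The core of that element, TGATGNAA, was searched on both strands of RefSeq promoter windows (GRCm38.p6) that run from 250 bases before to 50 bases after an annotated start. A window was found for 27 of the 36 members, 13 cytosolic and 14 mitochondrial. It held the motif in 5 members, or 18.5% of those with a window, against 4.51% of all 27025 genes with a window. All 5 were cytosolic, and 0 of the 14 mitochondrial windows held it. The stretches around the motif are shown for these 5 genes and for Asns (asparagine synthetase), an ATF4 target that makes the amino acid charged by Nars, because 3 of the 5 were among the genes that were lower in the lesioned library. Capitals mark the motif or its reverse complement. The Gars, Iars, Tars and Asns stretches run from 120 bases before the start to the first 30 transcribed bases. The Aars and Yars stretches are limited to 30 bases, since a longer annotated transcript covers them.
Aars, chr8:111033840-111033869, plus strand: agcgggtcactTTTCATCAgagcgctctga
Gars, chr6:55037881-55038030, plus strand: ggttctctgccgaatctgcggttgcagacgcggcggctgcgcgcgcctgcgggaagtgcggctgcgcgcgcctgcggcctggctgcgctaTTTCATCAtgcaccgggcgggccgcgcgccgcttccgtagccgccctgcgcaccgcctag
Yars, chr4:129189895-129189924, plus strand: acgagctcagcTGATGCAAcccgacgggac
Iars, chr13:49682010-49682159, plus strand: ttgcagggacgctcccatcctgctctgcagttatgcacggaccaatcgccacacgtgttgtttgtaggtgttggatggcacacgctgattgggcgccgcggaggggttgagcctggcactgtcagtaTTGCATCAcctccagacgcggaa
Tars, chr15:11399629-11399778, minus strand: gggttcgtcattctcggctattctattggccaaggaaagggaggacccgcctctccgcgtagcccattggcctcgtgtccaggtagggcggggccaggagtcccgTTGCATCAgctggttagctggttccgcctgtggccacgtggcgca
Asns, chr6:7693180-7693329, minus strand: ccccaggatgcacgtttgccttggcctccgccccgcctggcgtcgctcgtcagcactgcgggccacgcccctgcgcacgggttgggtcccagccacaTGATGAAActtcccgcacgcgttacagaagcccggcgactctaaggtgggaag
In Gars the motif began 30 bases before the start, in Tars 15 before and in Asns 23 before. In Iars and Yars it began 7 and 3 bases past the start. The Aars window held it at 9 bases past the start, as shown, and again at position -112. A match describes the letters of the window and does not show that a factor binds there.

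Library totals ranged from 51003699 to 70533326 counts, and 19300 genes passed the filter on low counts, with all 36 members among them. The defining genes of the nigral tissue were present in sham, where Th, the rate-limiting enzyme of dopamine synthesis, stood at 115 and 135 CPM, the count scaled to library size. It stood at 2.15 CPM in the 6-OHDA library and at 11.5 and 8.03 CPM in the 6-OHDA+NDST3 libraries. Cell type markers moved with the lesion. All 10 neuron markers were called lower in the 6-OHDA library, and their summed level was 7379 and 8081 CPM in sham, 2757 in 6-OHDA and 6408 and 5565 in 6-OHDA+NDST3. Of 8 microglia markers 7 were called higher, with sums of 391 and 298.2 CPM in sham, 2324 in 6-OHDA and 807 and 1330 in 6-OHDA+NDST3. Mural cell and fibroblast markers were called higher in 6-OHDA against sham in 7 of 8 and lower in 6-OHDA+NDST3 against 6-OHDA in 7 of 8, and 7 of 10 neuron markers were called higher in the latter comparison. In bulk tissue, fewer cells of a type and less RNA per cell cannot be told apart, and the part of these shifts in the results below was not tested. The mouse Ndst3 gene does not report on the vector, which carries the human gene.

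Per gene length, cytosolic synthetases were more abundant than their mitochondrial partners. The median sham level was 23.2 FPKM over the 20 cytosolic genes, which ranged from 11.8 for Vars to 89.3 for Nars, the asparagine enzyme. Over the 15 mitochondrial genes without Lars2 the median was 5.55 FPKM, and Wars2, the mitochondrial tryptophan enzyme, was lowest of all at 1.56 FPKM. When each cytosolic gene was set beside the mitochondrial gene for the same amino acid, the cytosolic gene had the higher sham FPKM in 16 of 17 pairs. The exception was Lars2, at 273 FPKM, whose counts are described further on and are uncertain.

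The comparison of 6-OHDA with sham asks what the lesion did to the charging enzymes. Genes were called where the quasi-likelihood test of edgeR gave a Benjamini-Hochberg adjusted p under 0.05 over the whole table. This called 9 of the 36 members, 8 lower and 1 higher. Over all genes 35.8% were called, 17.1% lower and 18.8% higher, so the members were not called more often than other genes. The 6-OHDA library lay outside the range of both sham libraries in 31 of 36 members, against 89.7% of all genes. A raw p under 0.05 was reached by 13 members and by 47.9% of all genes. None of the 36 reached a fold of 2 with a raw p under 0.05, against 24.5% of all genes. The median log2 fold change was -0.15 over the members and -0.002 over all genes.

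The calls lay mostly among the cytosolic enzymes outside the multi-synthetase complex. Of these 12 genes, 7 were called lower, against 17.1% of all genes. They were Hars, Wars, Yars, Aars, Gars, Sars and Nars, which charge histidine, tryptophan, tyrosine, alanine, glycine, serine and asparagine. Their levels in the 6-OHDA library were 60.5% to 69.7% of sham. None of the 8 complex members was called lower, and Dars, the aspartate enzyme, was called higher. By sign alone, 5 of the 8 were higher and 3 lower than sham, and a missed call does not show an unchanged level. The median log2 fold change was -0.52 over the 12 genes outside the complex and 0.14 over the 8 within it. The summed level of the 12 was 1405 and 1523 CPM in sham, 1028 in 6-OHDA and 1398 and 1299 in 6-OHDA+NDST3. That of the 8 was 554.6 and 555.8 CPM in sham, 602.8 in 6-OHDA and 563.8 and 579.4 in 6-OHDA+NDST3. The difference between both sets was not tested.

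**Figure D1:**
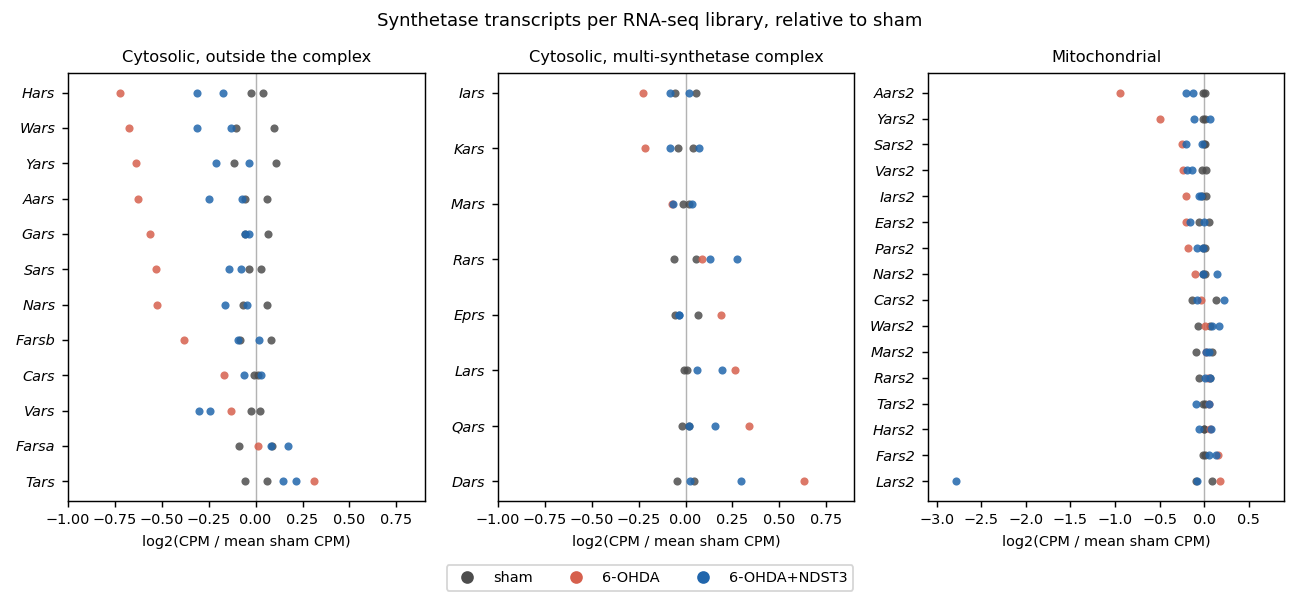
Level of each synthetase transcript in every RNA-seq library, as log2 of its CPM over the mean sham CPM; dots are libraries, coloured by group, in 3 panels by compartment and complex, of which the mitochondrial one has a wider axis. The 6-OHDA dots of Hars, Wars, Yars, Aars, Gars, Sars and Nars lie below every other dot of their rows, and the 6-OHDA dot of Dars lies above.

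Hars was measured at 113 and 118 CPM in sham, 69.7 CPM in 6-OHDA and 102 and 92.6 CPM in 6-OHDA+NDST3. It had the largest fall of the cytosolic genes, with a log2 fold change of -0.72 ± 0.12 (SE, adjusted p = 0.0122, edgeR). Wars (chr12:108860030-108894175) stood at 120 and 138 CPM in sham, 80.8 CPM in 6-OHDA and 118 and 104 CPM in 6-OHDA+NDST3. Both sham libraries lay above the 6-OHDA library for each of these genes, and so did both NDST3-treated libraries.

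Aars (chr8:111027778-111055569) read 256 and 277 CPM in sham, 172 in 6-OHDA and 253 and 224 in 6-OHDA+NDST3. Yars (chr4:129189734-129219240) read 109 and 127 CPM in sham, 76 in 6-OHDA and 115 and 102 in 6-OHDA+NDST3. Gars (chr6:55038001-55079504), mutated in a form of Charcot-Marie-Tooth disease, read 149 and 162 CPM in sham, 105 in 6-OHDA and 149 and 151 in 6-OHDA+NDST3. These are the 3 fallen genes whose promoter window held the motif shown above. Only 13 of the 20 cytosolic genes had a window, so a fallen gene not named here may not have been searched. Their log2 fold changes against sham were -0.63 ± 0.13 for Aars, -0.63 ± 0.15 for Yars and -0.56 ± 0.11 for Gars (SE).

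Sars (chr3:108424864-108445259) fell from 207 and 216 CPM in sham to 147 CPM in 6-OHDA, and read 201 and 192 CPM in 6-OHDA+NDST3. Nars fell from 243 and 266 CPM to 177 CPM, and read 247 and 228 CPM in 6-OHDA+NDST3. For all 7 genes the 6-OHDA library was the lowest of the 5. Lying below both sham libraries largely follows from being called lower and is no further support. The standard errors of their log2 fold changes lay between 0.11 and 0.15.

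The other 5 genes outside the complex were not called. Farsb, the beta subunit of the phenylalanine enzyme, read 56.4 and 63.2 CPM in sham, 45.9 in 6-OHDA and 60.5 and 56 in 6-OHDA+NDST3 (adjusted p = 0.0706, edgeR against sham). Farsa, its alpha subunit, had a log2 fold change of 0.01 ± 0.15 (SE). Cars, the cysteine enzyme, and Vars, the valine enzyme, had values of -0.17 and -0.13, and Tars, the threonine enzyme, of 0.31.

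Dars (chr1:128363707-128417416) was the only member called higher, in the 6-OHDA comparison with sham. It read 56.3 and 53 CPM in sham, 84.6 CPM in 6-OHDA and 55.6 and 67 CPM in 6-OHDA+NDST3, a log2 fold change of 0.63 ± 0.14 against sham (SE, adjusted p = 0.0273, edgeR). The 6-OHDA library stood above the other 4. Qars, the glutamine enzyme of the complex, read 48.9 and 50.1 CPM in sham and 62.5 in 6-OHDA and was not called (adjusted p = 0.0705, edgeR). Lars and Eprs had log2 fold changes of 0.26 and 0.18, Rars, Mars, Kars and Iars of 0.09, -0.07, -0.21 and -0.23. The scaffolds Aimp1, Aimp2 and Eef1e1, which hold the complex together, gave 0 calls of 3, with log2 fold changes of 0.0, -0.15 and -0.09.

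Synthetases also fall into 2 families by the fold of the catalytic core. Among cytosolic genes, 5 of 10 class II enzymes were called lower and 1 higher. Of 10 class I enzymes 2, Wars and Yars, were called lower. Over all genes 17.1% were called lower and 18.8% higher, so the class I count was near that share. Wars and Yars are close relatives within class I.

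Of the mitochondrial enzymes, 1 of 16 was called, against 35.8% of all genes. Aars2, the alanine enzyme whose mutations cause leukoencephalopathy and cardiomyopathy, lies on chr17:45503515-45520843 and had the largest fold change of all 36 members against sham. It read 30.1 and 29.6 CPM in sham, 15.5 CPM in 6-OHDA and 27.3 and 25.9 CPM in 6-OHDA+NDST3. The 6-OHDA library held 51.9% of the sham level, a log2 fold change of -0.95 ± 0.13 (SE, adjusted p = 0.0095, edgeR). The 6-OHDA library lay well below the other 4, which spanned 25.9 to 30.1 CPM. Yars2, the tyrosine enzyme, was the next lowest at 15.9 and 15.7 CPM in sham, 11.2 in 6-OHDA and 16.5 and 14.6 in 6-OHDA+NDST3, and was not called (adjusted p = 0.0652, edgeR). The other 14 had log2 fold changes from -0.25 for Sars2 to 0.18 for Lars2, with 0 calls.

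Among amino acids with a separate gene for each compartment, alanine was the only one for which both were called lower, in Aars and Aars2. Gars, which serves both compartments from the same gene, was also called lower. For 6 of the 17 pairs the cytosolic and mitochondrial fold changes had opposite signs, although in these pairs only Hars and Wars were called. Hars and Hars2 lie head to head on opposite strands, and their annotated spans share 4 bases. Hars fell, whereas Hars2 read 18.4 CPM in both sham libraries, 19.2 in 6-OHDA and 17.7 and 19.4 in 6-OHDA+NDST3 (log2 fold change 0.06 ± 0.14, SE). Wars2 read 8.74 and 9.59 CPM in sham, 9.24 in 6-OHDA and 10.3 and 9.75 in 6-OHDA+NDST3. Fars2, the phenylalanine enzyme of mitochondria, read 17.1 and 17.4 CPM in sham, 19.2 in 6-OHDA and 18 and 19 in 6-OHDA+NDST3. Mars and Mars2, the methionine enzymes, had log2 fold changes of -0.07 and 0.02. Eprs had 0.18, and its mitochondrial counterparts Ears2 and Pars2 had -0.2 and -0.18. Apart from Hars and Wars, the differences from sham in these genes did not pass the test.

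**Figure D2:**
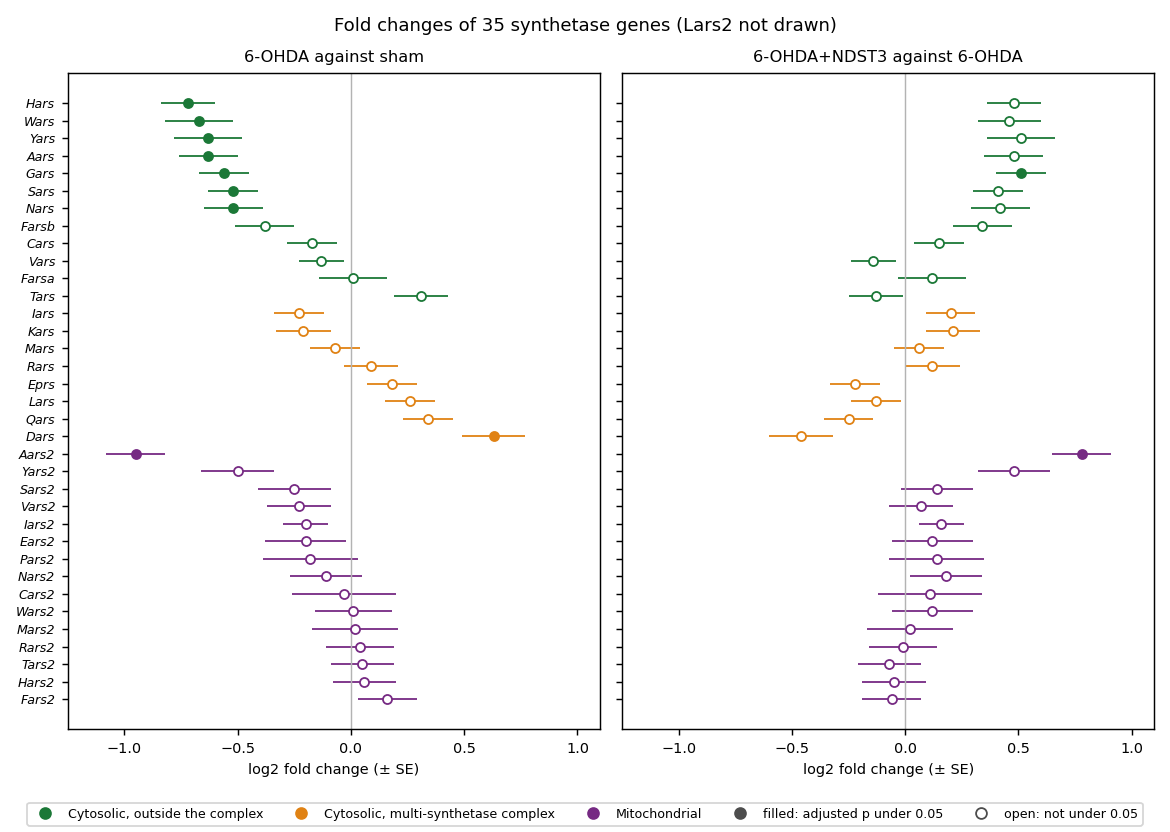
log2 fold change ± SE of 35 synthetase genes for 6-OHDA against sham and for 6-OHDA+NDST3 against 6-OHDA, coloured by compartment, with filled dots for adjusted p under 0.05 (edgeR). Both panels use the same 6-OHDA library, which sets a mirrored shape, and 9 dots are filled on the left and 2 on the right.

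These calls rest on both sham libraries. Without either sham library, each leaving 1 library on both sides, 0 genes of the whole table and 0 members were called. Without either library of the NDST3-treated PD model the count of 9 members stayed at 9.

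The comparison of 6-OHDA+NDST3 with 6-OHDA asks whether the levels differed after the vector. It uses the same 6-OHDA library as the comparison with sham, so the opposite sign of a gene's values in both is not independent. Called members numbered 2 of 36, both higher, against 15.6% of all genes called, 9.06% higher and 6.59% lower. A raw p under 0.05 was reached by 11 members and by 37.9% of all genes. Aars2 rose with a log2 fold change of 0.78 ± 0.13 (SE, adjusted p = 0.035, edgeR), and Gars with 0.51 ± 0.11 (SE, adjusted p = 0.0452, edgeR). Each was higher in 2 of 2 treated libraries, which the call itself nearly requires.

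Hars just missed the threshold, at 0.48 ± 0.12 (SE, adjusted p = 0.0523, edgeR), and Yars had 0.51 ± 0.15 (SE, adjusted p = 0.0769, edgeR). The log2 fold changes of Aars, Wars, Nars and Sars were 0.48, 0.46, 0.42 and 0.41, and that of Dars was -0.46. The median was 0.42 over the 12 cytosolic genes outside the complex, -0.04 over the 8 within it and 0.003 over all genes. The count of called members depended on the fit: 0 when only the libraries of both groups entered, 8 with DESeq2 and 6 with limma on FPKM. Without either sham library or without 6-OHDA+NDST3 replicate 1 it was 0, and without replicate 2 it was 3 (Aars2 and Hars higher, Dars lower), with Gars no longer called.

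Against sham, 0 of 36 members were called in 6-OHDA+NDST3 by edgeR, as were 0.0% of all genes, and DESeq2 called 0 members and 1023 genes. At an unadjusted p under 0.05 edgeR gave 2 members, Hars and Vars, and 14.2% of all genes. At a fold of 2 with that p there were 0 members, against 5.86% of all genes. Vars read 54.7 and 53 CPM in sham and 45.6 and 43.7 in 6-OHDA+NDST3, a log2 fold change of -0.27 ± 0.08 (SE, adjusted p = 0.273, edgeR). Hars had -0.24 ± 0.09 (SE, adjusted p = 0.347, edgeR). Apart from Lars2, the log2 fold changes lay between -0.27 and 0.2. A difference that missed the threshold does not show equal levels.

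Lars2, the mitochondrial leucine enzyme, stood apart from the other members. It read 1090 and 1230 CPM in sham, 1310 in 6-OHDA and 1100 in 6-OHDA+NDST3 replicate 1, but 168 CPM in replicate 2, or 15.2% of its partner library. In counts that was 65701 against 10015. Its standard error against sham was accordingly large, with a log2 fold change of -0.87 ± 0.82 for 6-OHDA+NDST3 (SE, adjusted p = 0.667, edgeR). Without replicate 2 the value was -0.09, and without replicate 1 it was -2.79 with an adjusted p of 0.0451 (edgeR).

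The same library was low for several ribosomal and nuclear RNAs, which were chosen for this account after their values were seen. Rn18s-rs5, an 18S ribosomal RNA gene, read 4820 and 5310 CPM in sham, 6230 in 6-OHDA, 4450 in 6-OHDA+NDST3 replicate 1 and 971 in replicate 2. Gm15564, a long non-coding RNA gene, read 169, 209, 236 and 186 CPM in the first 4 libraries and 24.5 in the last. Malat1, a nuclear-retained RNA, read 260, 222, 131, 167 and 44.7 CPM in the same order. The mitochondrial ribosomal RNAs did not share the drop, with mt-Rnr2 at 2810 CPM and 2800 CPM in both NDST3-treated libraries. The last Lars2 exon, exon 22 of 22, matched Gm15564 over 167 bases at 97.6% identity (chr9:123462023-123462189, GRCm38). The ribosomal RNA genes Rn18s-rs5, Rn28s1, mt-Rnr1 and mt-Rnr2 were also searched and gave no match. Reads from the stretch shared with Gm15564 could be assigned to either gene, so the Lars2 counts are uncertain. The part of the shared sequence in the Lars2 level was not tested. The sum of the mitochondrial members without Lars2 was 265.2 and 270.8 CPM in sham, 237.1 in 6-OHDA and 265.8 and 259.2 in 6-OHDA+NDST3.

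**Figure D3:**
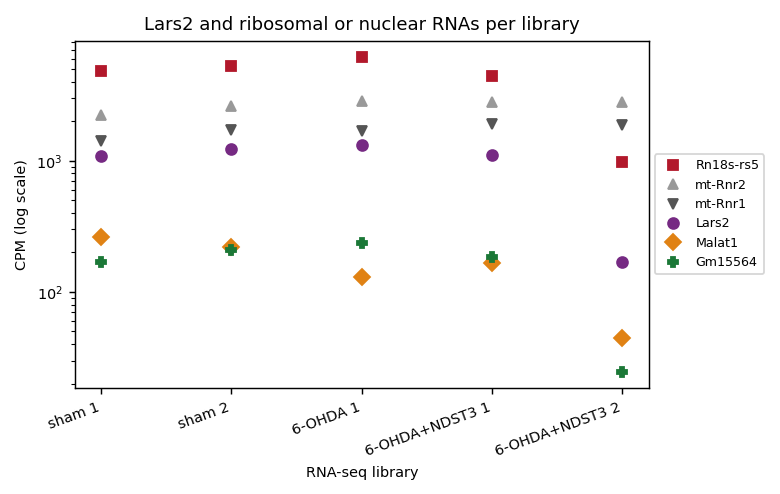
CPM, on a log axis, of Lars2, Rn18s-rs5, Gm15564, Malat1, mt-Rnr1 and mt-Rnr2 in each of the 5 RNA-seq libraries. In 6-OHDA+NDST3 replicate 2, Lars2 (168 CPM), Rn18s-rs5 (971), Malat1 (44.7) and Gm15564 (24.5) lie below their other libraries, and mt-Rnr1 and mt-Rnr2 do not.

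The pathway genes around the synthetases did not move as 1 group in 6-OHDA against sham. Of 30 genes of the ATF4 pathway, 9 rose and 4 fell, against 18.8% and 17.1% of all genes, with a median log2 fold change of 0.43. The largest rises were in Gdf15, a stress-induced cytokine (5.04), Atf3, a stress-induced transcription factor (3.46), Eif4ebp1, a repressor of cap-dependent translation (2.69), and Cebpb, a partner of ATF4 (2.2). Gdf15 was low in sham, at 0.116 and 0.0579 CPM. Atf4 itself, given here after its values were seen, was not called, at 102 and 108 CPM in sham, 109 in 6-OHDA and 108 and 102 in 6-OHDA+NDST3. These values are of the transcript, and the level or activity of the ATF4 protein was not measured here. Asns, named for its promoter after its values were seen, fell from 87.6 and 99.6 CPM in sham to 49.3 in 6-OHDA, and read 90.5 and 86.9 CPM in 6-OHDA+NDST3 (adjusted p = 0.00938, edgeR against sham). Of the 4 kinases that phosphorylate eIF2alpha upstream of ATF4, Eif2ak2, the double-stranded RNA sensor, rose (1.29) and Eif2ak1, the heme-regulated kinase, fell (-0.44).

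Wars is induced by interferon in many cells, and 13 of 13 interferon-responsive genes rose in the 6-OHDA library with a median log2 fold change of 2.02, led by Cxcl10 (3.81), Psmb9 (3.07), Psmb8 (3.01) and Tap1 (2.44). Wars fell in the same library. Among 11 cytosolic elongation and release factors, 5 rose and 2 fell, against 18.8% and 17.1% of all genes. Eef1a2, the elongation factor form of neurons and muscle, and Gspt2, a release factor, fell (log2 fold changes -1.59 and -1.28). Eef1a1, the widely expressed form, rose (1.04), as did Eef1b2, its exchange factor (0.78).

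The partners of the mitochondrial enzymes are read against the same 35.8% of all genes called. Of 12 mitochondrial translation factors 1 fell, the elongation factor Gfm1 (-0.45), and 10 of the 12 had a log2 fold change below 0, with a median of -0.27. Of 12 tRNA maturation genes Hsd17b10, a subunit of mitochondrial RNase P, rose (0.56) and Elac2, which trims tRNA 3′ ends, fell (-0.43). The glutamyl-tRNA amidotransferase, which makes mitochondrial glutamine tRNA, gave 0 calls of 3. Among 7 editing and rescue genes, Dtd1, which removes D-amino acids from tRNA, and Aarsd1, which clears mischarged alanine tRNA, fell (-0.79 and -0.54), and Prorsd1 rose (1.1). In 6-OHDA+NDST3 against 6-OHDA, the ATF4 pathway had 2 genes called higher and 3 lower of 30, against 9.06% and 6.59% of all genes, with a median log2 fold change of -0.28, and the interferon list 1 lower of 13, with a median of -0.93. The elongation and release factors had 2 higher and 1 lower of 11, Dtd1 alone of the editing genes was called (0.55), and the scaffolds, eIF2alpha kinases, mitochondrial translation factors, amidotransferase and tRNA maturation genes had 0 calls. Against sham, 0 genes of these lists were called.

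scRNA-seq was deposited as the mean per gene in 9 cell clusters for 6-OHDA and 6-OHDA+NDST3, with 1 library per group, and the sham library was not analysed here. These means were on a natural log scale (1 plus UMI per 10000), and differences are given on a log2 scale. The table gives no number of cells, so no depth, interval or test stands behind these means. By their markers, cluster 1 was neutrophil-like, cluster 4 T cell-like, cluster 6 microglia-like, cluster 7 endothelial-like and cluster 9 B cell-like. Cluster 5 was mural cell- or fibroblast-like, led by Acta2 and Tagln. Cluster 2 was highest for 7 of 8 astrocyte markers, for 6 of 7 oligodendrocyte markers and for 8 of 10 neuron markers, and clusters 2, 3 and 8 are given by number. Per the study's methods, cells with very many detected genes were removed, in part to limit multiplets. No doublet caller could be run on cluster means, and the part of doublets in cluster 2 was not tested. No cluster was led by neuron markers, whose median mean value was 0.0343 in cluster 2 and below 0.01 elsewhere.

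All 36 members were listed, and 10 lay above 0.1 in every cluster of both groups. Eprs, Nars and Sars were the highest of the cytosolic genes by their means, which are not corrected for length. Eprs ran from 0.288 in cluster 1 to 0.801 in cluster 3 in 6-OHDA, and from 0.259 to 0.778 in the same clusters in 6-OHDA+NDST3. Nars was highest in the microglia-like cluster 6 in both groups, at 0.642 and 0.659, as was Aars at 0.261 and 0.299. Farsb and Sars were highest in the B cell-like cluster 9, Farsb at 0.482 and 0.316 and Sars at 0.587 and 0.423. Dars was highest in cluster 2, at 0.306 and 0.346, and Hars too, at 0.262 and 0.338.

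Mitochondrial members were lower in these means, with medians over the 16 genes of 0.0202 to 0.105 by cluster and group, against 0.0943 to 0.199 over the 20 cytosolic genes. The neutrophil-like cluster 1 was lowest in both groups for 11 cytosolic and 9 mitochondrial members. Over all genes listed, the sum of back-transformed means was also lowest in cluster 1, at 5768 in 6-OHDA and 5620 in 6-OHDA+NDST3. No share of all genes lowest or highest in a cluster is given, so such counts are not read as a trait of the synthetases. In cluster 2, 5 mitochondrial genes reached their highest mean in both groups, among them Wars2 (0.29 and 0.294), Rars2 (0.235 and 0.191) and Lars2 (0.92 and 1.04). Fars2 was highest there as well, at 0.636 and 0.575. Lars2 was also high in the endothelial-like cluster 7, at 0.885 and 0.937, and lowest in the microglia-like cluster 6, at 0.269 and 0.276. The stretch that Lars2 shares with Gm15564 lies in its last exon, so its cluster means are uncertain as well. Nars2 was highest in the T cell-like cluster 4 in both groups. Aars2, Pars2 and Vars2 stayed below 0.05 in every cluster.

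**Figure D4:**
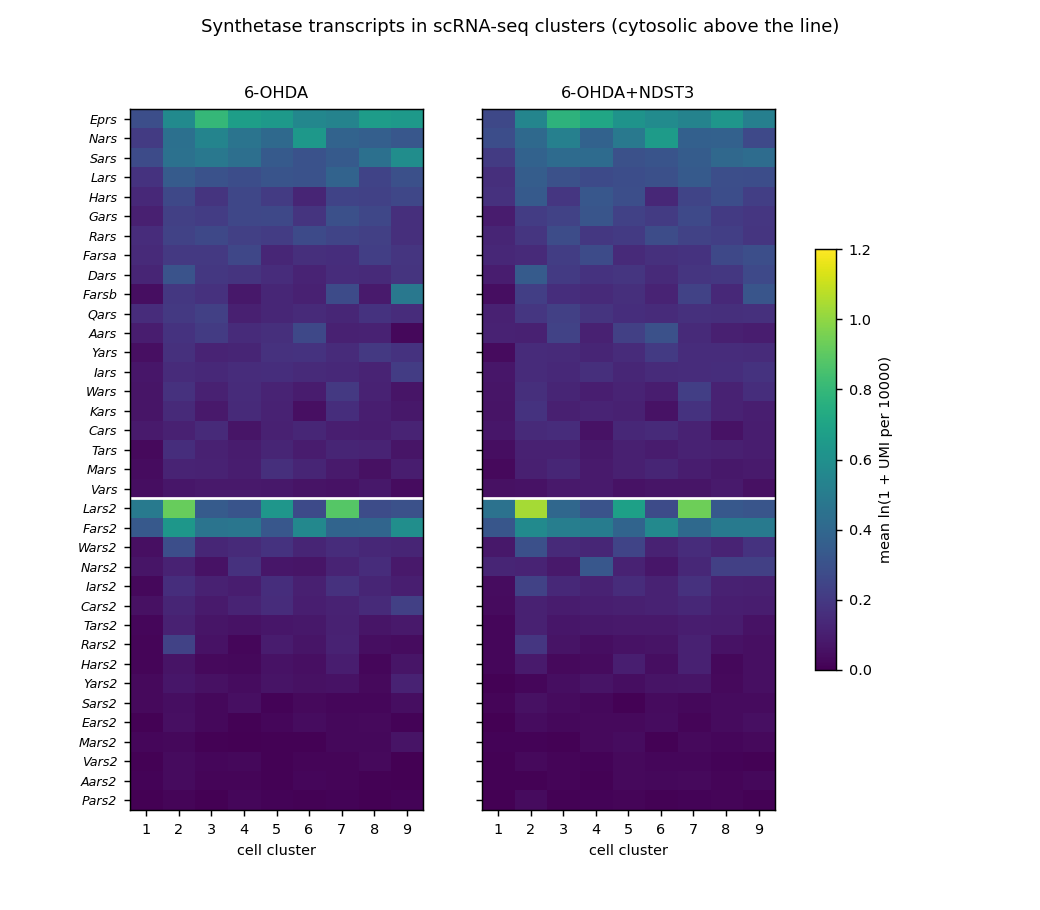
Mean value (natural log of 1 plus UMI per 10000, colour) of each synthetase gene in clusters 1 to 9, for 6-OHDA on the left and 6-OHDA+NDST3 on the right, with cytosolic genes above the line. Lars2, whose means are uncertain, is brightest in clusters 2 and 7 of both groups, and cluster 1 is dark for most genes.

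Between the groups no member differed by 1 on the log2 scale in any cluster, against 0.0125% of all pairs of gene and cluster over the 26646 genes listed. Most members could not reach this difference, because their means were too low in both groups. Only Eprs, with means up to 0.801, and Lars2, up to 1.04, had means high enough to pass. The largest differences were -0.24 for Farsb and for Sars in cluster 9 and 0.22 for Nars2 in cluster 4, where Nars2 read 0.169 in 6-OHDA and 0.325 in 6-OHDA+NDST3. As a ratio of back-transformed means, with a mean over 0.1 in either group, 5 of 206 pairs of member and cluster (2.43%) passed 2-fold, against 3.8% of all such pairs, with 4 of the 5 in cluster 9 (Cars2, Nars2, Wars and Yars2) and Nars2 in cluster 4. Medians of the log2 differences lay between -0.017 and 0.016 for cytosolic members and between -0.003 and 0.023 for mitochondrial members. Of the genes called in bulk RNA-seq, Aars2 stayed near 0, too low to show a difference. Gars read 0.181 and 0.208 in cluster 6 and 0.292 and 0.264 in cluster 7. Hars was higher in 6-OHDA+NDST3 in every cluster (0.257 and 0.327 in cluster 4) except cluster 9 (0.254 and 0.224). Sars was lower in every cluster (0.48 and 0.42 in cluster 3) except clusters 6 and 7 (0.301 and 0.313 in cluster 6). Wars, Yars, Aars, Nars and Dars were higher in some clusters and lower in others.

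H3K27ac marks active promoters and enhancers. The CUT&RUN table gives 1 pooled signal per group for 11424 regions near start sites, and 35 of these were annotated to 24 members, 15 cytosolic and 9 mitochondrial. The other 12 members (Cars, Gars, Lars, Wars, Yars, Cars2, Hars2, Iars2, Mars2, Pars2, Rars2 and Tars2) had no region there. Regions are named by their distance from the start site, since only 2.8% of 9080 regions with a promoter entry lay where GRCm38 would put them. Ratios were taken after adding 1 to each signal. There was 1 value per group, so no test or error is given.

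In 6-OHDA over sham, 1 of 35 member regions was 2-fold higher, against 7.7% of all regions, and 1 was 2-fold lower, against 4.48%. The higher region lay 475 bases before the Lars2 start, with signals of 5.05 in sham, 15.4 in 6-OHDA and 22.79 in 6-OHDA+NDST3. A second Lars2 region, 72 bases before the start, read 10.07, 7.45 and 13.91. The lower region lay 396 bases past the start of Ears2, the mitochondrial glutamate enzyme, with 15.66, 4.95 and 16.83. The median ratio was 1.12 over the member regions and 1.09 over all regions.

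Nearly the whole table was higher in 6-OHDA+NDST3 than in 6-OHDA, with 96.3% of all regions above 1 and 0.0% at or below a ratio of 0.5. At a 1.5-fold threshold 32.1% of all regions were higher and 0.0% lower. How the regions were selected or scaled is not given, so a ratio above 1 is not read as a rise at these genes. Against that background 34 of 35 member regions were above 1, and 7 of them reached 2-fold, against 11.0% of all regions. The median ratio was 1.33 over the member regions and 1.31 over all. The largest was at Sars2, the mitochondrial serine enzyme, 408 bases past the start, with signals of 11.7 in sham, 14.6 in 6-OHDA and 63.71 in 6-OHDA+NDST3. Another Sars2 region at 621 bases read 8.86, 12.4 and 26.35, whereas the one at 261 bases read 23.63, 17.9 and 22.38. Both Eprs regions reached 2-fold, with 21.04, 20.1 and 45.02 at 418 bases before the start and 1.03, 2.75 and 7.33 at 14 bases before it. The others were Ears2, above, Mars at 704 bases before the start with 5.62, 5.2 and 13, and Yars2 at 129 bases before it with 10.05, 10.45 and 21.9. None of these genes was called in RNA-seq.

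Among the genes called in RNA-seq, the region 140 bases before the Aars2 start read 7.06 in sham, 5.95 in 6-OHDA and 6.94 in 6-OHDA+NDST3. The region 31 bases before the Aars start read 3.43, 3 and 4.2. At Hars, the region 402 bases past the start read 18.08, 11.45 and 12.94 and that at 67 bases read 5.33, 6.2 and 6.72. The Sars region, 12 bases past its start, went the other way from its transcript, with 4.56, 9.45 and 14.49. The 3 Nars regions also had more signal in 6-OHDA than in sham. They read 15.27, 23.1 and 25.73 at 411 bases before the start, 24.09, 29.1 and 31.7 at 554 bases and 20.88, 28.8 and 39.38 at 760 bases. The Dars region at 4 bases past the start read 6.98, 8.2 and 11.13.

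**Figure D5:**
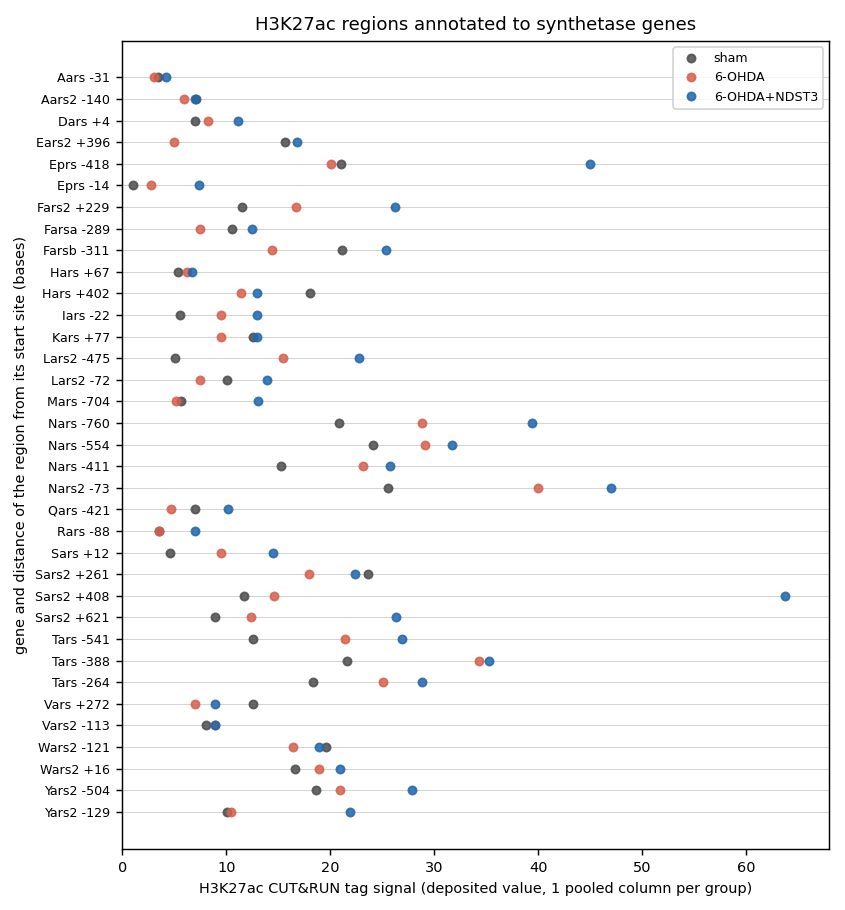
H3K27ac CUT&RUN signal of the 35 regions annotated to synthetase genes, labelled by gene and by distance from the start site in bases, with 1 dot per group. The 6-OHDA+NDST3 dot at Sars2 +408 (63.71) lies farthest to the right, and the 6-OHDA dot at Ears2 +396 (4.95) lies left of both others.

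The remaining regions stayed under 2-fold in both of these comparisons. Signals in sham, 6-OHDA and 6-OHDA+NDST3 were 25.58, 40 and 47.03 at Nars2, 11.48, 16.65 and 26.26 at Fars2, 8.04, 8.95 and 8.95 at Vars2, and 18.59, 20.9 and 27.87 at the distal Yars2 region. The Wars2 regions read 19.62, 16.4 and 18.88 at 121 bases before the start and 16.59, 18.9 and 20.89 at 16 bases past it. In the same order, the Tars regions read 18.33, 25.1 and 28.84 at 264 bases before the start. They read 21.63, 34.3 and 35.29 at 388 bases and 12.56, 21.4 and 26.87 at 541 bases. The single regions read 21.15, 14.4 and 25.32 at Farsb, 10.57, 7.45 and 12.42 at Farsa, and 12.59, 6.95 and 8.94 at Vars. Among complex members, Rars read 3.5, 3.5 and 7, and Iars 5.53, 9.45 and 12.93. Kars read 12.57, 9.45 and 12.93, and Qars 6.98, 4.7 and 10.18. In 6-OHDA+NDST3 over sham, 11 of 35 member regions were 2-fold higher, against 25.5% of all regions, and 0 were 2-fold lower, against 0.63%.

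ATAC-seq, which reads open chromatin, gave 5 regions at 4 members among 3537 regions with all 3 values. The Tars region 24 bases past the start had by far the highest signal of the 5, at 625.58 in sham, 651.25 in 6-OHDA and 696.35 in 6-OHDA+NDST3. Cars, 260 bases before the start, read 50.2, 66.5 and 81.3, and Lars, 253 bases before, read 8.94, 6.25 and 8.33. The Rars2 regions at 198 and 400 bases past the start read 86.44, 84.5 and 78.21 and 50.29, 41.25 and 43.19. In no comparison was a member region 2-fold higher or lower, against 4.58% of all regions higher and 5.06% lower in 6-OHDA over sham, 4.41% and 3.53% in 6-OHDA+NDST3 over 6-OHDA, and 8.37% and 5.91% in 6-OHDA+NDST3 over sham.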

How the data were processed

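RNA-seq reads had been trimmed with Trimmomatic, aligned to mm10 with HISAT2 and summarised with StringTie by the authors, from stranded poly-A libraries. The deposited table gives a read count, an FPKM and a TPM per gene and library, and the TPM was not used. Each listed gene has at least 1 count in every library. For scRNA-seq (Cell Ranger, Seurat), the deposited header calls the cluster values mean counts, but they fit a natural log of 1 plus UMI per 10000. The deposited H3K27ac and ATAC values are a tag signal per region and group, whose normalization is not given in the sources used here, and the 2 H3K27ac libraries of a group stand in 1 pooled column. The build behind the region coordinates does not match GRCm38, so no region sequence was read. Columns of the authors' own comparisons, where present, were not used.

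Counts were fitted in edgeR 4.0.16 (R 4.3.3) with TMM factors, filterByExpr, a mean per group over all 5 libraries and the quasi-likelihood test, which left 2 residual degrees of freedom. The Benjamini-Hochberg adjustment covered all 19300 genes tested, and a gene was called at an adjusted p under 0.05. A standard error is the absolute log2 fold change over the root of F. All tests were two-sided. The fit was tested on simulated data for 6-OHDA against sham, where it missed most genes changed 2-fold or less. Only 200 genes were changed there, far fewer than the 6916 called in the data, so the share missed may differ here. A member that was not called is not shown to be unchanged. Signal ratios used a pseudocount of 1 and a fold of 2, without a test. A motif search used RefSeq promoters (GRCm38.p6), and the Lars2 exons were compared by BLAST 2.17.0. DESeq2 1.42.0, limma 3.58.1 on log2 FPKM with a pseudocount of 1 or 0.1, other scalings and filters, and leaving out a replicate were alternatives.

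The members and gene lists were chosen with earlier results of these data known. Named with values were members called in any comparison, the 3 largest changes in each, the lowest and highest by FPKM, pairs whose compartments differed in direction, each annotated region, and up to 4 called genes of each pathway list. Other genes given were needed for a count or were chosen after their values were seen, as stated. The 6-OHDA group has 1 library, which limits what its comparisons can show.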

Additional observations from a re-analysis of the deposited data

How the results depend on the processing

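For 6-OHDA against sham, 9 members were called with DESeq2, RLE and upper-quartile factors, library totals, both other filters and a fit of only these groups, and 11 with limma on FPKM at either pseudocount. The same-numbered libraries of sham and 6-OHDA+NDST3 did not deviate together (r = -0.432). With 2 libraries in each of these groups, this value cannot show whether the replicate numbers pair the samples. With the replicate number as a block, 0 members, 0 cytosolic members outside the complex and 1796 genes were called in 6-OHDA against sham, and 0 members and 0 genes in 6-OHDA+NDST3 against 6-OHDA. A crossed pairing, chosen after seeing the data, gave 9 members in 6-OHDA against sham, 4 members and 4795 genes in 6-OHDA+NDST3 against 6-OHDA, and 0 members and 1194 genes in 6-OHDA+NDST3 against sham. Leaving out a replicate gave 0 to 9 members, 0 to 7 members outside the complex called lower and 0 to 7140 genes in 6-OHDA against sham, with 0 in each case where a sham library was left out. In 6-OHDA+NDST3 against 6-OHDA it gave 0 to 3 members, 0 to 1 complex member called lower and 0 to 3163 genes, and in 6-OHDA+NDST3 against sham 0 to 1 member and 0 to 111 genes. For 6-OHDA+NDST3 against 6-OHDA, DESeq2 called 8 members, 1 of them a complex member called lower, and 5194 genes. limma called 6 members at either pseudocount, with Aars2 no longer called. A fit of only both groups called 0 members and 0 genes, and library totals or a minimum of 10 counts called 3 members. DESeq2 called 1023 genes in 6-OHDA+NDST3 against sham. Over all 36 members and these RNA-seq alternatives, a call was lost 27 times and gained 4 times in 6-OHDA against sham, lost 13 times and gained 22 times in 6-OHDA+NDST3 against 6-OHDA, and gained 1 time, by Lars2, against sham. In these fits no member called in either the reported or the alternative fit changed sign. The causes were not tested. For H3K27ac, 3 of 35 member regions were higher in 6-OHDA over sham at a pseudocount of 0.1, against 9.59% of all regions. At a 1.5-fold threshold, 7 were higher and 3 lower in 6-OHDA over sham (22.0% and 12.8% of all regions), 13 higher in 6-OHDA+NDST3 over 6-OHDA (32.1% of all) and 18 higher in 6-OHDA+NDST3 over sham (46.4% of all). For ATAC, 1 of 5 regions was higher in 6-OHDA+NDST3 over sham at 1.5-fold, against 25.5% of all. In scRNA-seq, 5 pairs passed as a ratio of back-transformed means, and 18 members lay above a level of 0.05 in every cluster.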
